A study of Ovis aries with 2 samples.

Results

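The cells described here are the endothelial cells of the native sheep carotid artery that fell outside an interferon-responding group, 3632 of the 11371 barcodes of the native library and of 12600 barcodes in the series. A barcode entered with at least 1000 unique molecular identifiers (UMIs, each standing for 1 captured transcript), at most 20% of them from the 13 mitochondrial genes, and at least 3 UMIs in the sum of the endothelial genes PECAM1, CDH5, VWF, CLDN5, ESAM and TIE1. That sum also had to reach at least 2 times each of the smooth muscle sum (ACTA2, MYH11, CNN1, TPM2), the macrophage sum (C1QA, C1QB, AIF1, CSF1R, CTSS, CD163) and the T cell sum (CD3D, CD3E, CD3G, CD2, LCK). Barcodes with at least 2 UMIs of CXCL10, CXCL11 and IDO1 together, at 1500 CPM or more (UMIs per 1000000 of the cell's UMIs), were left out as interferon-responding. These are measured values, so the levels of those genes describe the choice of cells. Among 6810 native barcodes passing the depth and mitochondrial limits, 53.3% were chosen, and they made up 96.3% of the 3772 native endothelial cells. They are called the native endothelial cells below, and the 140 others are called the interferon-responding native endothelial cells.

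The series holds 1 droplet-based single-cell library of the native artery and 1 of a graft titled H2R5-ATEV, from sheep with a labelled age of 1 to 2 years. Artery and graft were explanted after 12 weeks, washed, trimmed of fat, filled with a mix of collagenase, elastase, neutral protease and DNase for 20 minutes, and the detached cells were captured after lysis of red blood cells. The native sample is titled as an aorta, while its tissue label and description name the carotid artery. The number of animals and the meaning of the code H2R5 are not given in the sources used here. With 1 library for each tissue there is no replicate check, and tissue, library and depth cannot be told apart.

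Endothelial cells line the lumen of every blood vessel. In arteries they carry gap junctions of connexin 40 (encoded by GJA5), receive Notch and BMP signals, sense shear stress through factors such as KLF2, release nitric oxide, and hold many caveolae, small membrane pits built by caveolins and cavins. Interferon gamma from lymphocytes makes them present antigen and release chemokines such as CXCL10.

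The native library held 43183715 UMIs and the graft library 36238351. The native endothelial cells summed to 17982410 UMIs, with a median of 3260.5 UMIs, 1469 genes and 3.09% mitochondrial UMIs per cell. The interferon-responding native endothelial cells had a median of 2200.5 UMIs. In the graft 217 barcodes met the same endothelial clauses, with no interferon clause applied, and had a median of 32124 UMIs. The libraries shared 7 barcode sequences, 2 of them among the native endothelial cells and 1 of these also a graft endothelial cell. A total of 281 cells entered at exactly 3 endothelial UMIs, while 270 native barcodes stood just outside with 2. The 491 native barcodes that reached 3 endothelial UMIs but not the required ratio to another cell type were left out, and so were 4460 native barcodes under 1000 UMIs, of which 962 (21.6%) met the endothelial clauses.

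The endothelial label held in genes that had no part in the choice. GJA5 was at 704 CPM in the native endothelial cells, against 47.7 CPM in the other 3038 native cells passing the depth and mitochondrial limits, 572 CPM in interferon-responding native endothelial cells and 120 CPM in graft endothelial cells. BMX, a tyrosine kinase gene of arterial endothelium, was at 692, 52.5, 495 and 147 CPM in the same order. TEK, the angiopoietin receptor gene, was at 624, 43.0, 468 and 366 CPM, and NOS3, the endothelial nitric oxide synthase gene, at 492, 34.3, 350 and 764 CPM. BMX, the least separated of these 4, was 13.2-fold above the other native cells, which are the cells that the rule left out. The genes of the rule were at 2406 CPM for PECAM1, 500.1 for VWF, 455 for CLDN5, 156 for CDH5, 104 for ESAM and 72.4 for TIE1.

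A gene was counted as higher or lower in a group where the CPM ratio, after adding 5 CPM to both values, was at least 2-fold, among genes with a symbol and at least 10 UMIs in the pair. By this rule 25 of 27 measured endothelial genes outside the choice were higher in the native endothelial cells than in the other native cells, and none was lower. Over all 12798 genes tested, 6.01% were higher and 12.5% lower, but the contrast is the one that chose the cells and is given as a description. The median log2 difference was 2.37 for these endothelial genes and -0.11 for all genes tested. It was 1.58 with each cell thinned to 1000 UMIs, that is, with 1000 of its UMIs drawn at random. In this contrast CAVIN2, PTPRB, MMRN2 and HMCN1 were 15.4-fold, 15.8-fold, 17.2-fold and 14.9-fold above the other native cells. The first shapes caveolae, PTPRB is a receptor phosphatase that restrains TEK signalling, MMRN2 is an endothelial matrix glycoprotein, and HMCN1 encodes a large extracellular matrix protein.

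At equal depth, with each cell thinned to 1000 UMIs, PECAM1 was seen in 87.9% of the native endothelial cells (95% exact binomial interval 86.8 to 88.9%). GJA5 was seen in 45.6% (43.9 to 47.2%), BMX in 43.2% (41.6 to 44.8%) and MECOM, a transcription factor gene of arterial endothelium, in 59.97% (58.4 to 61.6%). In 482 native T cells, chosen by the T cell sum in the same way, with a median of 5754 UMIs before thinning, the same shares were 6.02%, 1.87%, 1.24% and 3.94%. In 799 native macrophages they were 24.2%, 8.64%, 5.76% and 10.8%. Free RNA in the droplets can give such UMIs, and its part was not tested. The shares of GJA5, BMX and MECOM in the endothelial cells lay above those of the T cells and macrophages. Both of these groups were kept only where their own sum was at least 2 times the endothelial sum. The gap to them therefore partly describes the choice. PECAM1 is a gene of the rule, so its share describes the choice. Before thinning, 77.2% of the native endothelial cells held GJA5 and 74.0% held BMX, with both genes in 2221 cells, GJA5 alone in 582, BMX alone in 468 and neither in 361. Intervals here and below cover counting error only.

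**Figure D1:**
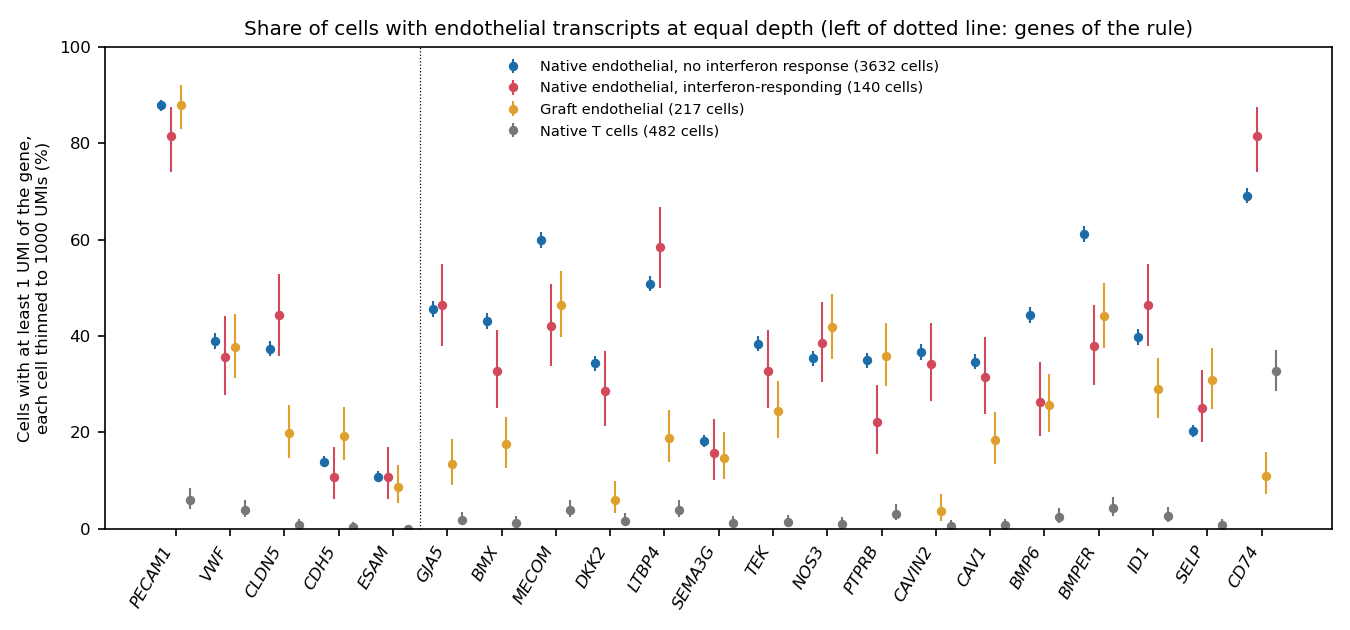
Share of cells (vertical axis, percent) with at least 1 UMI of each gene (horizontal axis) after every cell was thinned to 1000 UMIs, with exact 95% binomial intervals as bars, for the native endothelial cells, interferon-responding native endothelial cells, graft endothelial cells and native T cells. GJA5 stands at 45.6%, 46.4%, 13.4% and 1.87% in these groups, and CD74 at 69.1%, 81.4%, 11.1% and 32.8%.

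Many genes listed here as arterial were present in the cells. Of 20 measured arterial genes, 13 were higher and 3 lower than in the other native cells, with a lowest log2 difference of -3.34. The other native cells are those that the endothelial rule left out. This count therefore does not tell arterial from other endothelial cells. DKK2, a secreted WNT antagonist, was at 563 CPM, and LTBP4, which anchors latent TGF-beta in the matrix, at 822 CPM. SEMA3G, an arterial semaphorin, was at 210 CPM, EFNB2, the arterial ephrin ligand, at 77.0 CPM and GJA4, encoding connexin 37, at 93.2 CPM. The arterial Notch ligand DLL4 was at 5.12 CPM and the Notch target HEY1 at 0.834 CPM, from 15 UMIs, whereas the related target HEY2 was at 38.6 CPM and the ligand JAG1 at 173 CPM.

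Among genes of other endothelial beds, the venular gene ACKR1 had 1 UMI in 3632 cells and APLNR had 0, which allows up to 3 of 17982410 UMIs. Of the capillary genes, CA4 stood at 0.222 CPM, GPIHBP1 and BTNL9 at 0, and RGCC at 3.67 CPM. Of 4 measured venous genes, 2 were higher and 1 lower than in the other native cells (median 0.22). The venous transcription factor gene NR2F2 was at 60.8 CPM, below the 126.5 CPM of the other native cells. EPHB4, an ephrin receptor gene on the venous list, was seen in 2.59% of the native endothelial cells after thinning. SELP, a leukocyte adhesion receptor named here with the venous genes, stood at 257 CPM against 17.4 CPM, and 1593 cells held both SELP and GJA5 while 250 held SELP without GJA5. Lymphatic genes summed to 29.4 CPM. CCL21 was found in 6 cells, with 271 of its 281 UMIs in 1 barcode of 21053 UMIs. That barcode also held 19 UMIs of PROX1, 43 of MMRN1, 48 of RELN and 5 of LYVE1, and 0 of GJA5 and BMX, which is the lymphatic pattern in a single barcode.

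No UMI of CXCL10, CXCL11 or IDO1 was seen in 3022 of the native endothelial cells (83.2%), 1 was seen in 361 and 2 or more in 249. Among cells with at least 2 such UMIs, the highest native endothelial cell kept stood at 1499 CPM and the lowest interferon-responding cell at 1507 CPM. The interferon-responding cells had a median of 2362 and a maximum of 65766.5 CPM. These are the values the clause used, and near its limit they rest on few UMIs divided by the depth of the cell.

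**Figure D2:**
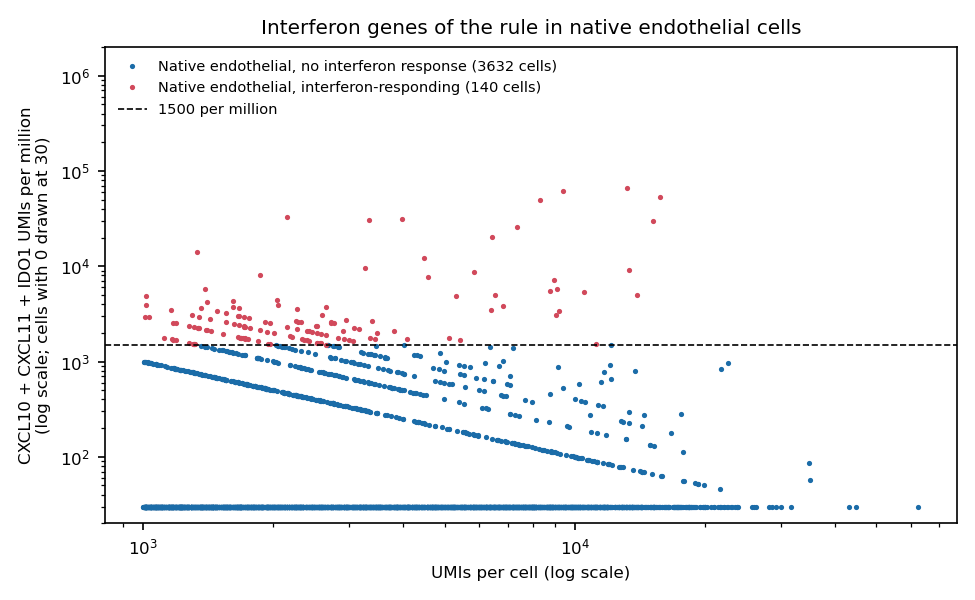
Summed CXCL10, CXCL11 and IDO1 in CPM (vertical axis, log scale, cells with 0 drawn at 30) against UMIs per cell (horizontal axis, log scale), with 1 point for each of 3632 native endothelial cells and 140 interferon-responding ones. The diagonal rows are cells with 1, 2, 3 and more UMIs, and the dashed line marks 1500 CPM.

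Beyond the genes of the clause, the native endothelial cells held lower levels of interferon-induced genes than the interferon-responding ones. This contrast is the one that split the cells, so its values are a description and nothing is read from the counts. Over all 11452 genes tested, 4.94% were higher and 1.22% lower in the native endothelial cells, with a median log2 difference of 0.13. Of 19 measured interferon gamma response genes 11 were lower and none higher (median -1.06), and of 20 type I interferon response genes 14 were lower and none higher (median -1.21). After thinning the type I median was -0.60, and IFIH1, RSAD2 and IFIT1 stood at 0.27, 0.066 and 0.020, on the other side of 0. IRF1, the transcription factor that starts the interferon gamma programme, stood at 88.3 against 530.1 CPM, a ratio with an exact 95% interval of 5.22 to 6.88. GBP2, a guanylate-binding protein gene, was at 52.4 against 493 CPM, WARS1, a tryptophan tRNA synthetase induced by interferon, at 123 against 1036 CPM, and CD274, which encodes the checkpoint ligand PD-L1, at 50.4 against 343 CPM. MX2, an antiviral gene, was at 53.7 against 264 CPM and ISG15, a ubiquitin-like modifier, at 77.1 against 306 CPM.

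Of 12 interferon receptor and signalling genes 1 was lower and none higher (median -0.19). It was IFNAR2, a subunit of the type I receptor, at 11.3 against 33.0 CPM, from 15 UMIs in the interferon-responding cells, and its log2 difference of -1.22 was 0.63 after thinning. IFNGR1, a receptor subunit for interferon gamma, stood at 188 against 284 CPM. JAK1 and JAK2, the receptor kinases, stood at 193 against 196 CPM and 95.6 against 88.0 CPM, with ratio intervals that include 1. Beside them, OLR1, the oxidised LDL receptor gene, was at 57.4 against 570 CPM, the activation receptor gene CD40 at 25.7 against 180 CPM, the mitochondrial superoxide dismutase gene SOD2 at 83.4 against 447 CPM and the adhesion gene ICAM1 at 209 against 486 CPM. After thinning, the log2 differences of GBP2, WARS1, IRF1, CD274, OLR1 and SOD2 shrank from -3.12, -3.02, -2.52, -2.65, -3.20 and -2.35 to -1.63, -1.95, -1.68, -1.75, -1.53 and -1.63. MX2 and ISG15 fell short of 2-fold when thinned, at -0.72 and -0.88, and ICAM1 at -0.89.

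Endothelial and arterial genes hardly separated the groups by the 2-fold rule. None of 27 endothelial genes was 2-fold different (median 0.34), and 3 of 20 arterial genes were higher in the native endothelial cells (median 0.40). These were PRDM16, at 99.8 against 33.0 CPM, UNC5B, at 21.6 against 2.20 CPM, and EFNB2 at 77.0 against 24.2 CPM (log2 1.49, and 0.87 with the interferon clause at 750 CPM). They rest on 15, 1 and 11 UMIs in the interferon-responding cells. MECOM, a relative of PRDM16, was at 1661 against 1021 CPM, within 2-fold. FOS was at 4740 against 4560 CPM and KLF2 at 565 against 569.7 CPM, with ratio intervals that include 1.

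**Figure D3:**
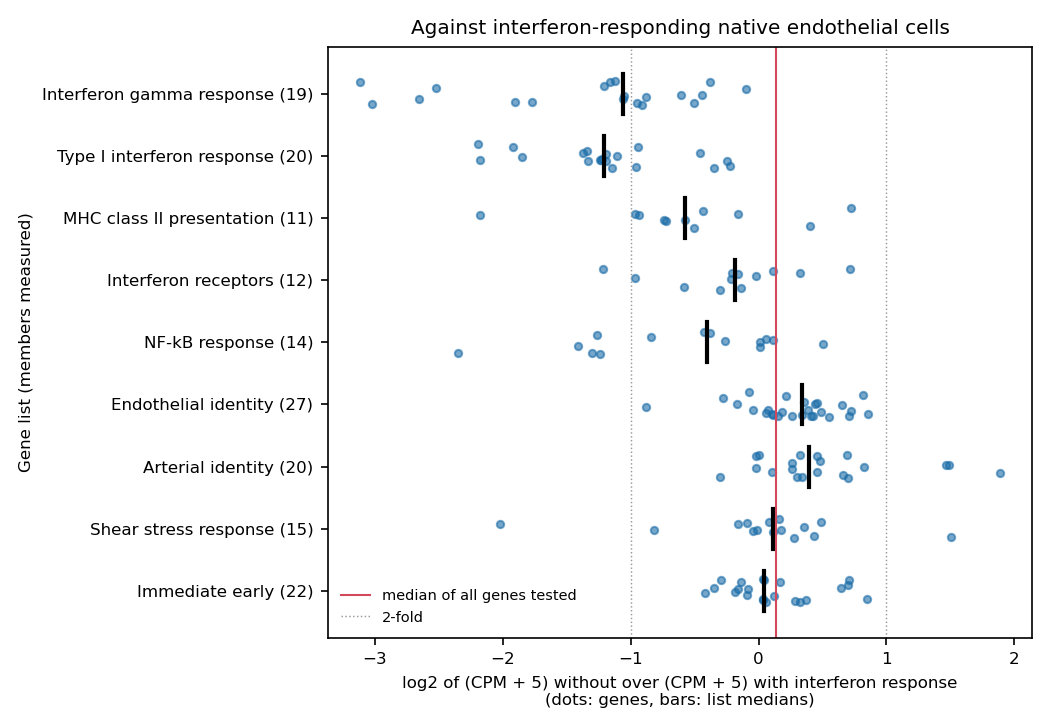
log2 of the CPM ratio (5 CPM added) of the native endothelial cells over the interferon-responding ones (horizontal axis), with genes as dots and list medians as bars for 9 gene lists (vertical axis, number measured in brackets). Interferon gamma response genes have a median of -1.06 and arterial genes of 0.40, beside 0.13 for all genes tested.

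Within the native endothelial cells, clustering on 2000 variable genes gave 8 sub-clusters, numbered by size and left unnamed. Their leading genes follow from the clustering and are a description. Sub-cluster 1 held 1239 cells at a median of 1637 UMIs and 951 genes, sub-cluster 2 held 771 at 4290 UMIs, sub-cluster 3 held 508 at 6924.5 UMIs, and sub-cluster 4 held 472 at 9438 UMIs. Sub-clusters 5, 6, 7 and 8 held 248, 203, 173 and 18 cells, at medians of 5074.5, 2309, 2053 and 9284.5 UMIs. Depth therefore moves with the sub-clusters, and its part in them was not tested.

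Sub-cluster 2 was led by HMCN2, SEMA4A, SLC7A1, PRDM16, IGF1R and EFNA5. In it MECOM stood at 3636 CPM, against 456 to 1408 CPM elsewhere, and BMPER, a secreted modulator of BMP signalling, at 3319 CPM against 568 to 1530 CPM. SEMA4A was at 493 CPM there, EFNA5, an ephrin ligand, at 786 CPM and IGF1R, the receptor for insulin-like growth factor 1, at 381 CPM. This sub-cluster had 6.76% mitochondrial UMIs at the median and 1.57% of UMIs from ribosomal protein genes, where the other 7 had between 7.68% and 11.2% ribosomal protein UMIs. Immediate early genes summed to 9928 CPM in it, and VIM, a cytoskeletal filament gene, stood at 2231 CPM against 7359 CPM in sub-cluster 1. Whether RNA quality has a part in this profile was not tested.

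Sub-cluster 3 was led by PLVAP, DDIT4, CFI, SEMA3G, LTBP1 and IGFBP3, with PLVAP, a component of the diaphragms of endothelial pores and caveolae, at 204 CPM and SEMA3G at 368 CPM. Sub-cluster 4 was led by HS3ST1, FMOD, CITED1 and TNFRSF11B, with HS3ST1, which modifies heparan sulfate, at 431 CPM against 32.3 CPM in sub-cluster 3, and TNFRSF11B, encoding osteoprotegerin, at 551 against 183 CPM. PLVAP was at 64.6 CPM in sub-cluster 4. Over all native endothelial cells, 354 held both PLVAP and HS3ST1, 591 PLVAP alone, 958 HS3ST1 alone and 1729 neither. GJA5 was high in both, at 944 and 728 CPM, and so was PECAM1, at 3342 and 2328 CPM.

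Sub-cluster 5 was led by UNC5C, POSTN, TGFB2, INHBA, LOXL1 and CCN2. UNC5C, a netrin receptor, stood at 544 CPM, TGFB2, a TGF-beta ligand, at 103 CPM, CCN2, a matricellular growth factor, at 775 CPM, and INHBA, which encodes a subunit of activin, at 88.8 CPM. GJA5 was at 850 CPM and SELP at 433 CPM, the latter against 284 CPM or less in the other sub-clusters. The heat shock gene HSPA6 was at 992 CPM in this sub-cluster and 113 CPM in sub-cluster 2, so stress transcripts differ between them too.

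Sub-cluster 6, with a median of 2309 UMIs and 8.08% mitochondrial UMIs, was led by SEC62, HYPK, PIN4, TMCO1 and FAU, with the transcription factor gene SOX9 also among its 10 leading genes at 304 CPM, and held GJA5 at 697 CPM and BMX at 779 CPM. Sub-cluster 1 was led by CCL21, from the single barcode described above, and by CXCL10, C1QA, GPR183 and C1QB, genes of other cells or of the interferon clause. In it 27.3% of cells held at least 1 UMI of the interferon clause genes, CD74, a chaperone of antigen-presenting class II molecules, was at 2656 CPM, and MECOM was at 456 CPM. Its endothelial genes were present, with PECAM1 at 2164 CPM, CLDN5 at 720 CPM and GJA5 at 657 CPM.

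Sub-clusters 7 and 8 carried the markers of other cell types beside endothelial ones. Sub-cluster 7 had 4 fibroblast markers among its 10 leading genes, with DCN, a matrix proteoglycan, at 7495 CPM, COL1A1 at 4484 CPM and PI16 at 843 CPM, and 14 fibroblast markers summed to 29952 CPM, against 506 to 3113 CPM in the other sub-clusters. Sub-cluster 8 was led by DNAJC6, IL12RB2, HEATR9, IL2RB, XCL1 and KLRK1, with the lymphocyte chemokine gene XCL1 at 1152 CPM, and its T cell markers outside the rule summed to 3204 CPM. PECAM1 was at 1346 and 781 CPM in them, the lowest of the 8. The 18 cells of sub-cluster 8 held few UMIs of some endothelial genes, with 5 of CDH5, 5 of ESAM and 1 of TIE1. GJA5 was at 174 CPM and TEK at 264 CPM in it. Sub-clusters 7 and 8 hold 191 of the cells, and whether they are doublets was not tested, since the doublet caller marked 0 native barcodes.

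**Figure D4:**
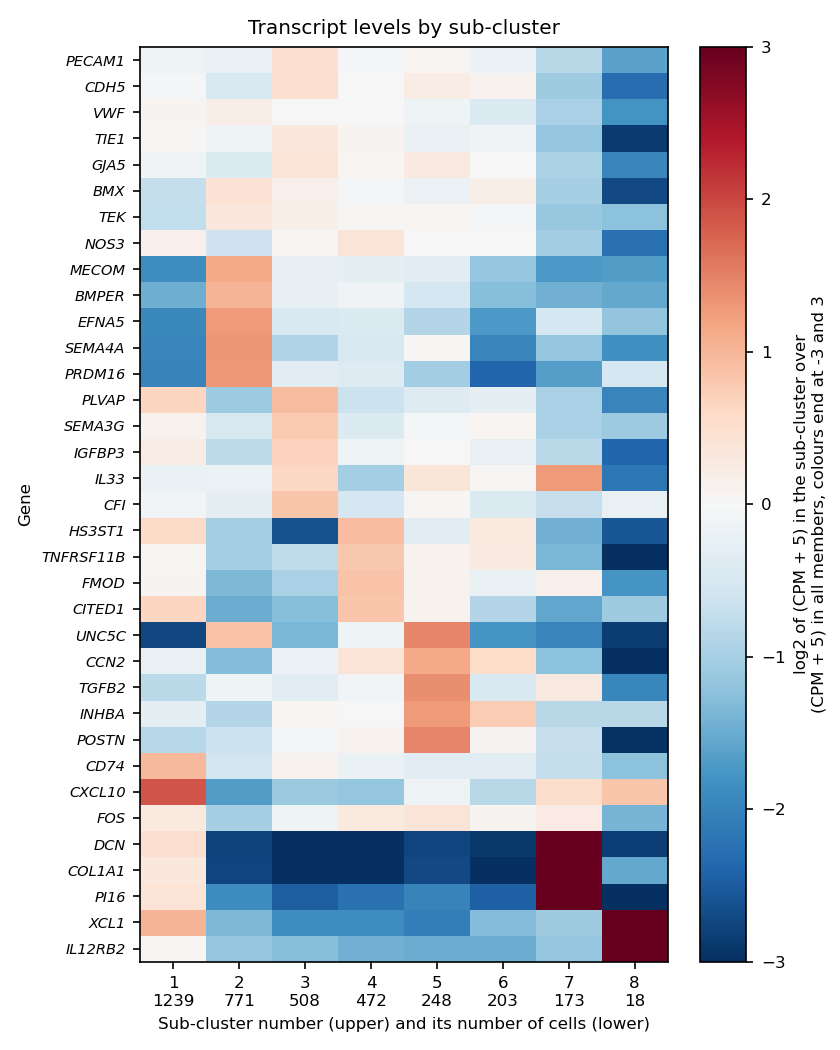
Heat map of 35 genes (vertical axis) in the 8 sub-clusters of the native endothelial cells (horizontal axis, with the number of cells), coloured by log2 of the CPM ratio (5 CPM added) to all native endothelial cells. Sub-cluster 2 stands out by MECOM at 3636 CPM and BMPER at 3319 CPM, sub-cluster 4 by HS3ST1 at 431 CPM, and sub-cluster 7 by DCN at 7495 CPM.

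Depth itself divided the cells. In the 1128 cells of 1000 to 2000 UMIs, the 1227 of 2000 to 5000 and the 1277 of at least 5000, GJA5 stood at 619, 602 and 747 CPM and PECAM1 at 2340, 2121 and 2505 CPM. MECOM stood at 845, 1737 and 1743 CPM and BMPER at 879, 1689 and 1734 CPM. A fibroblast gene and an antigen presentation gene went the other way. COL1A2, a fibrillar collagen gene of fibroblasts, was seen in 50.6%, 27.5% and 13.3% of cells thinned to 1000 UMIs, and CD74 in 80.9%, 68.9% and 59.0%. GJA5 thus held its level across depth, while the shallow cells carried more fibroblast and antigen presentation transcripts and less MECOM.

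The native endothelial cells were then set beside the 217 graft endothelial cells, with the differences in tissue, library and depth given above. Over the 12015 genes tested, 5.93% were higher and 7.62% lower in the native cells, with a median log2 difference of 0.01. Of the genes past 2-fold, 43.8% were higher in the native cells, and 58.9% after thinning (1345 higher and 938 lower). Fibroblast markers summed to 2342 CPM in the native and 2374 CPM in the graft endothelial cells. Of 14 such markers 9 were higher and 1 lower in the native cells, with DCN at 467.5 against 50.3 CPM. The median log2 difference of these markers was 1.27, and 0.54 without sub-cluster 7. Macrophage markers outside the rule summed to 20.2 against 81.6 CPM and T cell markers to 69.8 against 8.04 CPM. Their part in the differences below was not tested.

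Arterial identity genes differed in both directions. Of 20 measured, 5 were higher and 4 lower in the native cells, with a median of 0.46. GJA5 was at 704 against 120 CPM, a 5.85-fold difference (exact 95% interval 5.52 to 6.21), BMX 4.71-fold higher (4.46 to 4.97) and DKK2 15.3-fold higher (13.8 to 17.1), at 563 against 36.7 CPM. LTBP4 and FBLN5, an elastic fibre protein gene, were 4.61-fold and 4.59-fold higher. SEMA3G and EFNB2, at log2 differences of 0.51 and 0.49, came to 0.01 and 0.01 after thinning. NRP1, a co-receptor for VEGF and semaphorins, was lower in the native cells at 54.4 against 234 CPM, and so were UNC5B, a netrin receptor, at 21.6 against 53.9 CPM and DLL4 at 5.12 against 28.2 CPM. After thinning, the log2 differences of GJA5, BMX, DKK2, LTBP4 and FBLN5 were 2.03, 1.51, 2.88, 1.52 and 1.48, against 2.50, 2.20, 3.77, 2.17 and 2.06 before. In shares of thinned cells, GJA5 was in 45.6% of native against 13.4% of graft endothelial cells (9.14 to 18.6%), and BMX in 43.2% against 17.5% (12.7 to 23.2%).

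Of 27 endothelial genes outside the rule, 2 were higher and 5 lower in the native cells (median -0.20). KDR, the main VEGF receptor, was at 18.0 against 85.1 CPM, ENG, a TGF-beta co-receptor, at 153 against 624 CPM, EMCN, a surface mucin, at 62.3 against 362 CPM, and CALCRL, the adrenomedullin receptor, at 390 against 906 CPM. These 4 were 4.72-fold, 4.07-fold, 5.81-fold and 2.32-fold lower. ROBO4, an endothelial guidance receptor, was 4.66-fold lower. EPAS1, a hypoxia-inducible transcription factor gene, was higher at 244 against 112 CPM, a log2 difference of 1.08 that was 0.53 with every cell weighted equally. MCAM, an adhesion molecule, was at 91.8 against 40.2 CPM, a log2 difference of 1.10 that was 0.79 after thinning. ENG and EMCN came to -1.32 and -1.69 after thinning, from -1.99 and -2.45.

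In the Notch pathway 2 of 15 genes were higher and 2 lower. LFNG, which modifies Notch receptors, was at 42.5 against 5.49 CPM, from 56 UMIs in the graft cells, with a log2 difference of 2.18 that was 0.70 after thinning. The other higher gene was the ligand DLL1, at 15.5 against 4.31 CPM (log2 1.14, and 0.77 with equal weight per cell). DLL4 and HEY1 were the lower ones, HEY1 at 0.834 against 8.83 CPM. JAG1 was at 173 against 276 CPM, HES1 at 140 against 184 CPM and NOTCH4 at 25.02 against 18.8 CPM, all within 2-fold. The median of the list was -0.10, and -0.79 after thinning.

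BMP and TGF-beta genes differed in both directions, with 5 of 20 higher and 4 lower in the native cells. Among the targets, ID2 was at 1228 against 174 CPM, 7.04-fold higher (6.71 to 7.39), and ID3 at 529 against 213 CPM, 2.48-fold higher, while ID1 was at 680 against 529.5 CPM. SMAD6, an inhibitor of the pathway, was 2.12-fold higher, with a log2 difference of 1.05 that was 0.66 with every cell weighted equally. Among the ligands, BMP6 was at 1111 against 574 CPM and BMP2 at 30.3 against 70.8 CPM, and the log2 difference of BMP2 went from -1.10 to -0.57 after thinning. The receptors went opposite ways. TGFBR2 was at 539 against 197 CPM (log2 1.43, and 0.91 after thinning), and TGFBR1 at 56.4 against 431 CPM, 7.63-fold lower (7.12 to 8.18). The co-receptor TGFBR3 was at 34.6 against 8.63 CPM (log2 1.54, and 0.66 with equal weight). TGFB2 was 3.82-fold lower.

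Shear stress response genes had 3 of 15 higher and none lower (median 0.21). KLF2 was at 565 against 179 CPM, 3.15-fold higher (3.001 to 3.32), and KLF4 at 289 against 177 CPM, within 2-fold. ASS1, which supplies arginine for nitric oxide synthesis, and THBD, which encodes thrombomodulin, were 2.94-fold and 2.09-fold higher, but their log2 differences of 1.45 and 1.04 were 0.74 and 0.14 after thinning.

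Among 18 vessel tone genes 3 were higher and 5 lower in the native cells. PTGS2 and PTGS1, the cyclooxygenases, were at 418 against 43.1 CPM and 220 against 93.6 CPM, and PDE3A, which breaks down cyclic AMP, at 844 against 394 CPM. The log2 difference of PTGS2 went from 3.14 to 2.14 with equal weight per cell, and that of PDE3A from 1.09 to 0.75. ECE1, which matures endothelin, was at 308 against 735 CPM, and NPPC, which encodes C-type natriuretic peptide, at 3.11 against 403 CPM. KCNJ2, an inward rectifier potassium channel gene, was at 11.1 against 58.1 CPM, and its log2 difference went from -1.97 to -2.99 after thinning. PDE4D was 2.54-fold lower, and EDNRB, an endothelin receptor gene, had 2 UMIs in the native cells against 184 in the graft cells.

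Of 9 caveolar genes 4 were higher in the native cells and 1 lower. CAVIN2 was at 530.5 against 26.2 CPM, 20.3-fold higher (17.9 to 23.0), CAV2 at 413 against 90.9 CPM and CAV1 at 509 against 225 CPM, whereas CAVIN1 was level at 461 against 466 CPM. EHD2, which stabilises caveolae, was at 131 against 292 CPM (log2 -1.13, and -0.87 with equal weight per cell). ROR1, a receptor that binds cavins, went from a log2 difference of 2.71 to 1.28 with equal weight. After thinning the log2 difference of CAV1 was 0.97. That of CAVIN2 was 4.10, and 3.31 with equal weight.

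Among 19 junction genes, 4 were higher and 2 lower. JAM2, a junctional adhesion molecule, was at 346 against 81.9 CPM, 4.22-fold higher (3.93 to 4.54), and CGNL1, a tight junction scaffold, at 466 against 208 CPM, with a log2 difference of 1.15 that was 0.90 with equal weight. GJA5 is also on this list, and JAM3 was at 11.2 against 0.686 CPM, from 7 UMIs in the graft cells. The lower ones were JUP, which encodes plakoglobin, at 26.9 against 66.2 CPM, and GJC1, encoding connexin 45, at 12.5 against 50.6 CPM. GJA1, encoding connexin 43, was at 305 against 190 CPM.

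Of 15 coagulation genes 3 were higher and 7 lower (median -0.88). PLAT, the tissue plasminogen activator gene, was at 2.06 against 112 CPM, and its log2 difference of -4.06 was -1.55 after thinning. TFPI, the tissue factor pathway inhibitor gene, was at 3.95 against 223 CPM. PROCR, the protein C receptor gene, was at 153 against 333 CPM (log2 -1.10, and -0.30 after thinning). F3, encoding tissue factor, and TFPI2 were higher in the native cells at 22.1 against 0.784 CPM and 128 against 13.8 CPM. Without sub-cluster 7 the log2 differences of F3 and TFPI2 went from 2.23 to 1.42 and from 2.82 to 1.61.

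None of 17 basement membrane genes was higher and 6 were lower. COL4A2, a chain of the main basement membrane collagen, was at 21.0 against 405 CPM, 19.3-fold lower (17.4 to 21.5), and LAMC1 and LAMA5, laminin chains, were 6.62-fold and 4.84-fold lower. COL8A1 was at 359 against 2417 CPM. COL18A1 and HSPG2, which encodes perlecan, were at 780 against 680 CPM and 724 against 897 CPM. COL4A1, the lowest of the list, stood at 24.5 against 913 CPM. Among graft cells outside the endothelial group its level was 1713 CPM, above both of these values. Whether free RNA of those cells has a part in the basement membrane differences was not tested.

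Although cells with strong chemokine expression had been left out, the native endothelial cells held more interferon gamma and antigen presentation transcripts than the graft endothelial cells. The interferon clause was not applied to the graft, where 1 cell met it. Of 19 interferon gamma response genes 8 were higher and none lower (median 0.80). MHC class II genes had 6 of 11 higher and none lower (median 1.08), and type I interferon response genes had 5 of 20 higher and none lower (median 0.72). The class II list holds CTSS, a gene of the macrophage sum used in the choice. CTSS was 1 of the 6 higher genes, and its value is the median of that list. CD74 was at 1359 against 54.8 CPM, 24.8-fold higher (22.8 to 27.01), and CIITA, the master regulator of class II genes, at 9.73 against 0.392 CPM, from 4 UMIs in the graft. HLA-DMA, which loads peptides, was at 84.5 against 8.63 CPM, B2M, the light chain of class I, at 156 against 21.7 CPM and GBP5 at 77.3 against 8.83 CPM. MX2 was at 53.7 against 3.14 CPM and FGL2, an immunoregulatory fibrinogen-like protein gene, at 430 against 13.1 CPM. The log2 differences of CD74 and FGL2, 4.51 and 4.58, were 3.62 and 3.69 after thinning.

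CD74 is abundant in macrophages, whose free RNA can reach other droplets. For each UMI of macrophage markers outside the rule, the native endothelial cells held 67.1 UMIs of CD74 and the native macrophages 8.05. FGL2 stood at 21.2 and 0.204 in the same measure. The choice kept macrophage transcripts low in the first group and high in the second, so these ratios partly follow from it. In all other native cells passing the depth and mitochondrial limits, interferon-responding endothelial cells included, CD74 was at 4232 CPM and FGL2 at 585 CPM. Both values lay above the 1359 and 430 CPM of the native endothelial cells. The part of free RNA in the CD74 and FGL2 levels was not tested. In thinned cells CD74 was seen in 69.1% of native endothelial cells, 93.4% of native macrophages and 32.8% of native T cells, which is a high background, and FGL2 in 32.4%, 21.7% and 3.32%.

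Immediate early genes, which dissociation of tissue is known to induce, were higher in the native cells at 12 of 22, with 2 lower (median 1.19). The gap was not confined to endothelial cells. These genes summed to 14193 against 7706 CPM in the other native and other graft cells, and to 17841 against 7051 CPM in the endothelial cells. FOS was at 4740 against 1189 CPM, 3.99-fold higher (3.91 to 4.07), JUN at 2799 against 972 CPM and NR4A1 at 608 against 87.2 CPM, whereas KLF6 was at 176 against 572 CPM. NF-kB response genes went the other way, with none of 14 higher and 7 lower (median -0.85). NFKB1, a subunit of the factor, was at 151 against 784 CPM. SELE, the endothelial selectin gene, had 0 UMIs in the native cells and 18.9 CPM in the graft cells, at least 113-fold lower against a floor of 3 UMIs over the group. OLR1 was at 57.4 against 1677 CPM.

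None of 16 glycolysis genes was higher and 8 were lower (median -0.999), with ENO1 at 131 against 436 CPM and GAPDH at 174 against 528 CPM (log2 -1.58, and -0.97 with equal weight). None of 14 cell cycle genes was higher and 12 were lower. Their median of -1.73 was -0.64 after thinning.

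**Figure D5:**
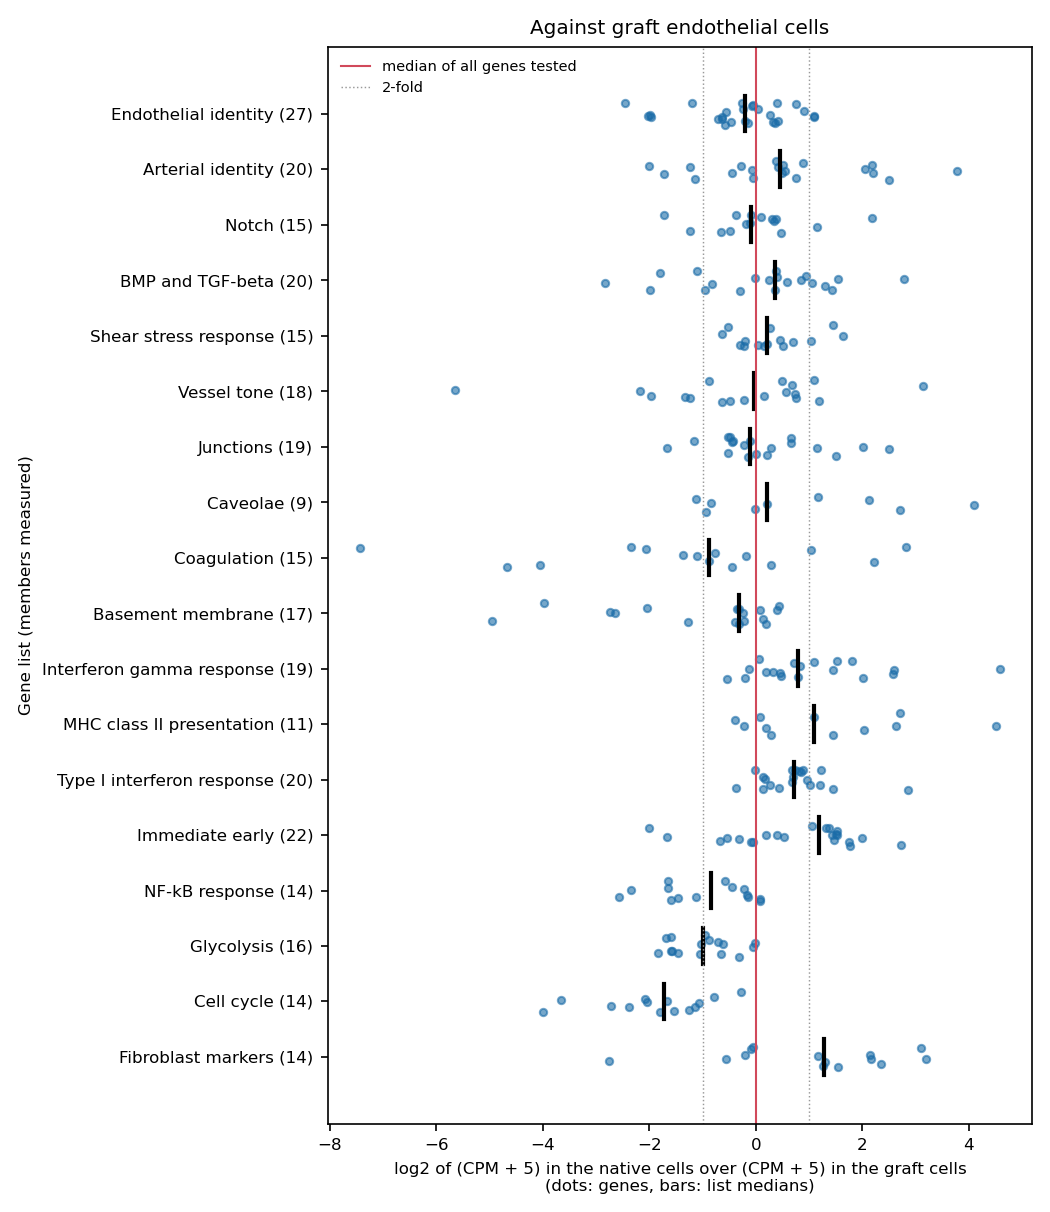
log2 of the CPM ratio (5 CPM added) of the native over the graft endothelial cells (horizontal axis), with genes as dots and list medians as bars for 18 gene lists (vertical axis, number measured in brackets). Immediate early genes have a median of 1.19 and cell cycle genes of -1.73, beside 0.01 for all genes tested. MHC class II genes have a median of 1.08, which is the value of CTSS, a gene of the macrophage sum used in the choice.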

How the data were processed

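Native carotid artery and H2R5-ATEV graft were each measured in 1 library by Chromium NextGEM v3.1. The deposited matrices hold raw UMI counts per gene and barcode, made with Cell Ranger 7.2.0 per the file headers. Seurat 5.0.0, R 4.3.3 and bcl2fastq 2.20.0.422 are listed, with no role given, per the submitters' processing notes. The genome build is not given in the sources used here.

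From these counts, UMIs were summed over the cells of a group and scaled to CPM, with exact 95% Poisson intervals for levels, exact conditional binomial intervals for ratios and Clopper-Pearson intervals for shares. They cover counting error only, and no p-value was computed, since there was 1 library per group. Genes without a symbol (6435 of 21890) stayed in the totals and were not counted as higher or lower. Sub-clusters came from scanpy 1.11.5 (Python 3.11.15, numpy 2.4.6, scipy 1.17.1, pandas 2.3.3) with 2000 variable genes, 30 principal components, 15 neighbours and Leiden resolution 0.5. Scrublet's own threshold marked 0 native and 3 graft barcodes (0.244% of the graft), so it was taken not to have worked, and no doublets were removed. The computation was tested on simulated data.

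The cells and the 39 gene lists were chosen with earlier results of these data known. Genes were named as the 12 highest and 12 lowest log2 ratios per comparison. Each needed at least 50 CPM and 30 UMIs in the higher group. Immunoglobulin, haemoglobin, ribosomal protein and mitochondrial genes did not enter. A gene also stayed out where its level in that group was below the CPM of its library's other cells divided by 4. This limit does not clear a gene of free RNA, since CD74, FGL2, ZBTB16 and COL4A1 were kept although other cells held more of them. Also named were the 10 leading genes of each sub-cluster, and the 4 most abundant and the 2-fold different members of each list. Not all genes so selected are printed, and some results are not reported here.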

Additional observations from a re-analysis of the deposited data

How the results depend on the processing

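No paired analysis was possible because each group is 1 library, and for the same reason no replicate could be left out. The 3632 native endothelial cells became 2504 with a UMI minimum of 2000, 3334 with a mitochondrial limit of 10%, 3028 with at least 5 endothelial UMIs, 3506 with endothelial UMIs at least 3 times the others, 3499 with the interferon clause at 750 CPM, 3347 without the highest Scrublet scores and 3459 without the sub-cluster led by fibroblast markers, an alternative chosen after seeing the data, as was the restriction to cells of at least 5000 UMIs. The 8 sub-clusters became 4 at resolution 0.3 and 5 with 30 neighbours. Against the other native cells, the 1598 lower genes became 2465 with 1 CPM added, the 769 higher genes became 510 with equal weight per cell, and the endothelial median of 2.37 became 1.51 with equal weight and 1.58 after thinning. TMM scaling shifted that comparison, with the median of all genes going from -0.11 to 0.0070, and 41.0% of the genes past 2-fold were higher, against 32.5%. Against the interferon-responding cells, the 566 higher and 140 lower genes became 326 and 71 at 750 CPM, 1794 and 424 with 1 CPM added, and 1647 and 445 after thinning. The type I interferon median of -1.21 became -1.38 at a UMI minimum of 2000, -0.86 at 750 CPM, -0.62 with equal weight and -0.60 after thinning, and the endothelial median of 0.34 became 0.089 after thinning. The sign turned for DPT at 750 CPM (-0.18), for SFRP2 without the fibroblast-led sub-cluster (-0.34), and after thinning for IFNAR2 (0.63), IFIH1 (0.27), CYP1B1 (0.47), RSAD2 (0.066), F2R (1.03), NFKB2 (0.069) and IFIT1 (0.020). Against the graft, the 713 higher and 915 lower genes became 1299 and 1442 with 1 CPM added, and the higher ones 1345 after thinning. The Notch median of -0.10 became -0.56 with equal weight and -0.79 after thinning, the cell cycle median of -1.73 became -1.004 and -0.64, and the glycolysis median of -0.999 became -0.55 with equal weight. The sign turned for LUM without the fibroblast-led sub-cluster (-0.15) and for NR4A3 with equal weight (-0.30) and after thinning (-0.58). With equal weight 37.5% of the genes past 2-fold were higher in the native cells. The cause of these changes was not tested. Thinning leaves few UMIs of low genes in the 140 interferon-responding and 217 graft endothelial cells, which limits what their thinned values can show.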

Other observations

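Other genes selected by the naming rule, outside the lists, also differed between the native and the graft endothelial cells. CCSER1, at 719.8 against 15.6 CPM, B3GALT1, a galactosyltransferase gene, at 128 against 1.86 CPM, ZBTB16, a zinc finger transcription factor gene, at 94.98 against 0.981 CPM, BEX5 at 71.01 against 0.294 CPM (3 UMIs in the graft cells), DKK3, a secreted relative of the WNT antagonist DKK2, at 358 against 20.6 CPM, TSPAN7, a tetraspanin gene, at 335 against 20.0037 CPM, UNC5C at 193 against 5.98 CPM and KIF26B, a kinesin family gene, at 232 against 10.0018 CPM were higher in the native cells. ANKRD1, an ankyrin repeat protein gene, had the lowest ratio within the limits of that rule, at 1.56 against 1876 CPM. IGFBP5, an insulin-like growth factor binding protein gene, was also lower at 60.2 against 2176 CPM, as were COL12A1 at 12.5 against 769.6 CPM, RGS7 at 16.2 against 792 CPM, MYO10, an unconventional myosin of filopodia, at 1.78 against 326 CPM and FAM171B at 2.89 against 336 CPM. In the other graft cells ANKRD1, IGFBP5, COL12A1, RGS7, MYO10 and FAM171B were at 421, 353, 246, 409, 232 and 56.0 CPM. In the other cells of the native library ZBTB16 was at 106.5 CPM, above its level in the native endothelial cells, and CCSER1 at 353 CPM. The remaining higher genes of this paragraph were at 55.4 CPM or less there.

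Lipid uptake genes had 1 of 11 measured members higher and 6 lower than in the graft endothelial cells (median -1.37). None of 9 measured heat shock genes differed by 2-fold (median 0.27), although these genes summed to between 3784 and 9736 CPM over the sub-clusters.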
